A study of Arabidopsis thaliana with 9 samples.

Results

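The comparison of the bes1-D mutant with its En2 wild type rests on 6 of the 9 RNA sequencing libraries of the series, 3 of bes1-D and 3 of En2. All loci of the deposited table with at least 1 FPKM (fragments mapped to a locus, scaled by its length and by the library) in at least 3 of the 9 libraries were compared, which left 19740 of 25199 loci. En2 is the Enkheim wild type of Arabidopsis thaliana, and the genotype label reads Enkheim (En2) for all 3 groups. That a library is bes1-D therefore rests on its title alone. bes1-D is a gain-of-function allele of the transcription factor gene BES1, known for a more stable BES1 protein. The remaining 3 libraries over-express RAV1, with neither the promoter nor the number of lines given in the sources used here, and they entered the fit for the estimate of the spread. Seedlings of all 3 groups were 7 days old and had grown on MS agar plates at 22 degrees Celsius with 16 h of light and 8 h of darkness, without treatment. Each group had 3 biological replicates. Since no label says whether these came from separate plates, p-values measure the spread between these libraries, which may be technical.

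BES1 is a transcription factor of the brassinosteroid pathway. Brassinosteroids are plant steroid hormones that are bound at the cell surface by the receptor BRI1 and its co-receptor BAK1. Their signal inactivates the kinase BIN2, which otherwise phosphorylates BES1 and its relative BZR1 and keeps them from acting. Active BES1 and BZR1 are known to promote cell elongation in seedlings and to repress genes of brassinosteroid biosynthesis, a negative feedback. Both bind the brassinosteroid response element CGTGTG or CGTGCG and the E-box CANNTG, of which CATGTG is 1 form and CACGTG, the G-box, another.

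The DNA upstream of genes was read from the TAIR10.1 genome, in windows of 300 bases that end just before the annotated gene start, and 4 windows are shown because their genes recur in the results: BEH2, a member of the BES1 family that fell in bes1-D, RAV1, which the series title sets against BES1, CYP90D1, an enzyme gene of brassinosteroid biosynthesis that fell, and SAUR15, a growth gene that rose. Capitals mark the brassinosteroid response element in both forms and the E-box form CATGTG, found on either strand, so some capitals show the reverse complement. Each window is printed 5′ to 3′ on the strand of its gene.
BEH2 (chr4:17334356-17334655, minus strand): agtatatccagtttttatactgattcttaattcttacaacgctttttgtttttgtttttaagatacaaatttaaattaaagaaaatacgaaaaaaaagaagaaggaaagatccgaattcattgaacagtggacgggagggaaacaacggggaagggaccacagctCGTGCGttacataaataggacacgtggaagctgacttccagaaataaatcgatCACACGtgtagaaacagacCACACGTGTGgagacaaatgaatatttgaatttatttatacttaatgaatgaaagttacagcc
RAV1 (chr1:4541868-4542167, plus strand): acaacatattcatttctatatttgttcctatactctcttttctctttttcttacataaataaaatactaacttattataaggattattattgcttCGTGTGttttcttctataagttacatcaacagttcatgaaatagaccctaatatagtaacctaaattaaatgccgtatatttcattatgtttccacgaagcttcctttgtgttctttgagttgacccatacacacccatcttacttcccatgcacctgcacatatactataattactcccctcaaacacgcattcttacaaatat
CYP90D1 (chr3:4500921-4501220, minus strand): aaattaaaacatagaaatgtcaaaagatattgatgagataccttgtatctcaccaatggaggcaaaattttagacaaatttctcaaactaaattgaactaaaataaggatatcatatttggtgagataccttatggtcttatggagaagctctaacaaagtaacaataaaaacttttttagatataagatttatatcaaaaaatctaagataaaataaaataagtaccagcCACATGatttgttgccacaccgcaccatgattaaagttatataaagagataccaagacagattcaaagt
SAUR15 (chr4:18125757-18126056, plus strand): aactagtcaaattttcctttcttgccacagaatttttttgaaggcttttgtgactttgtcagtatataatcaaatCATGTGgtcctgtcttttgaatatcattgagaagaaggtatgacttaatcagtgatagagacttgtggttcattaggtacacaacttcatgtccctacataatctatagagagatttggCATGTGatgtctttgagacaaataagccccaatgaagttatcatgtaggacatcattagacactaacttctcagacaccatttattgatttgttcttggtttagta
The BEH2 window held CGTGTG 3 times, CGTGCG once and CACGTG 3 times, with the CACGTG matches overlapping those of CGTGTG where both occur. RAV1 had 1 CGTGTG, CYP90D1 had 1 CATGTG, and SAUR15 had 2 CATGTG. Over all loci tested with a window, CGTGTG or CGTGCG occurred on either strand in 1584 of 19686 windows (8.05%), CATGTG in 13.0%, CACGTG in 7.97% and CANNTG in 62.9%. Among loci called lower in bes1-D (adjusted p under 0.05, see the test below), 137 of 1138 windows held CGTGTG or CGTGCG, and among loci called higher 31 of 433 (7.16%). The shares for CATGTG were 14.4% and 15.2%, and for CACGTG 7.29% and 7.62%. None of the 6 brassinosteroid biosynthesis genes that fell had CGTGTG or CGTGCG within these 300 bases, and 3 of them (CYP90D1, CPD and BR6OX1) had CATGTG. These matches describe the letters of the windows and not sites bound in these seedlings.

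In bes1-D 433 loci rose and 1139 fell against wild type, by limma on log2(FPKM + 1), with calls made where the adjusted p (Benjamini-Hochberg, all loci) was under 0.05. These are 7.96% of the loci tested, 2.19% higher and 5.77% lower, the shares to set beside each list count below. Log2 changes and fold changes from the fit are on the log2(FPKM + 1) scale, which understates changes of low loci. The changes were mostly small: the median fold was 1.55 for loci that rose and 1.51 for loci that fell, and 88 loci rose (0.446%) and 206 fell (1.04%) by 2-fold or more. Without adjustment 23.5% of all loci had a p under 0.05. The median log2 change over all loci tested was -0.06. The predominance of lower calls depended on the scaling between libraries, since trimmed-mean scaling gave 593 higher and 756 lower and quantile normalization 588 and 820. The trimmed-mean scale of the 3 bes1-D libraries lay between 0.933 and 0.957, and that of the wild-type libraries between 0.987 and 1.00. Most totals fell when 1 library was left out, to 193 higher and 531 lower without En2 replicate 1, 160 and 456 without En2 replicate 2, 219 and 581 without En2 replicate 3, and 234 and 606 without bes1-D replicate 2. They were 321 and 816 without bes1-D replicate 1, and 302 and 1205 without bes1-D replicate 3. Of the 1572 calls 469 held in all 6 fits that left out 1 library, 113 higher and 356 lower, and none of the 1572 took the opposite sign in any of these fits. All 1572 had non-overlapping groups, which was also true of 29.5% of all loci tested. Calls were spread over the genome, with 7.53% to 8.58% of the loci called on each of the 5 chromosomes and 6.21% (26 of 419) within 1 Mb of BES1. Split by mean level into 4 equal sets of loci, the share called was 5.01% in the lowest set and 12.4% in the highest.

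**Figure D1:**
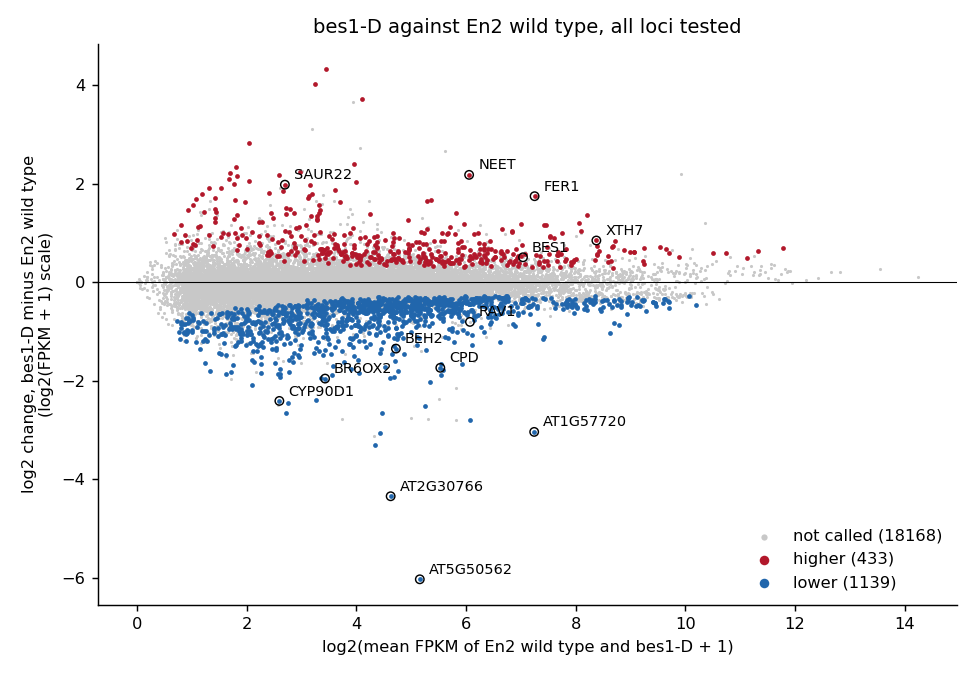
Each point is 1 of the 19740 loci tested, with the level (log2 of the mean FPKM of En2 wild type and bes1-D plus 1) on the horizontal axis and the log2 change, bes1-D minus En2, on the vertical axis. Red points (433) were called higher and blue points (1139) lower, and labelled circles show that AT5G50562, AT2G30766 and AT1G57720 lie far below and NEET and FER1 above the main body of points, while BES1 and RAV1 were not called.

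The libraries resembled each other in size. FPKM totals lay between 890880 and 971271, and 22241 to 22551 loci were above 0 in each library. Pearson correlations of log2(FPKM + 1) across loci, which are not independent replicates, were 0.980 to 0.985 within bes1-D and within wild type and 0.967 to 0.975 between them. The depth is unknown, as the table holds no counts. Seedlings hold many tissues, and in such bulk samples fewer cells of a type and less RNA per cell cannot be told apart. Markers of green tissue were abundant in both groups: the 21 genes of the photosynthetic light reactions took 6.39% to 6.90% of all FPKM in wild type and 7.25% to 7.99% in bes1-D, without overlap, and limma called none of them (2 had an unadjusted p under 0.05). Seed maturation markers (10 genes) were low in both groups, with summed levels of 17.7 to 34.4 FPKM in wild type and 22.0 to 35.5 in bes1-D, and none of the 7 tested was called (0 at an unadjusted p under 0.05). In the RAV1 over-expression libraries that sum ran from 137 to 1648 FPKM, so those libraries stand apart. A fit without them called 439 loci higher and 929 lower in bes1-D and kept 1196 of the 1572 calls (76.1%).

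BES1 itself (AT1G19350, chromosome 1, 6688463 to 6691216, plus strand) measured 95.5, 121 and 106 FPKM in wild type and 136, 142 and 182 in bes1-D. The groups did not overlap, as in 29.5% of all loci tested, and the difference missed the threshold (log2 change 0.50, SE 0.15, adjusted p = 0.0692 by limma). The bes1-D allele is known to act on the protein, so the transcript does not check the label, and the gene overlaps AT1G19360 in a library type that does not mark strand. RAV1 (AT1G13260) measured 71.4, 99.02 and 81.9 FPKM in wild type and 53.9, 58.3 and 33.2 in bes1-D. Its 3 bes1-D values lay below every wild-type value, and it also missed the threshold (log2 change -0.81, SE 0.26, adjusted p = 0.0929 by limma). Exact two-sided permutation of 3 against 3 libraries gave p = 0.1 for both genes, the smallest it can give.

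Within the BES1/BZR1 family 1 of 6 members was called, against 7.96% of all loci tested. BEH2 (AT4G36780, chromosome 4, 17332269 to 17334355, minus strand), a close homologue of BES1, measured 39.0, 35.02 and 36.8 FPKM in wild type and 14.0, 13.7 and 13.9 in bes1-D. The bes1-D libraries were nearly identical and all below wild type, with a log2 change of -1.35 (SE 0.08, adjusted p = 1.43e-05 by limma). BEH2 was also lower in bes1-D than in RAV1 over-expression, where its mean was 41.4 FPKM (log2 difference -1.51, adjusted p = 4.2e-06 by limma). That contrast called 28.0% of all loci lower in bes1-D. BZR1, BEH3 and BEH4 had overlapping groups and log2 changes of 0.20, -0.04 and 0.01. BEH1 measured 12.04, 16.5 and 14.6 FPKM in wild type and 8.82, 11.6 and 9.23 in bes1-D, without a call (adjusted p = 0.0841). Of the RAV family EDF3 (AT3G25730) fell, from 15.0, 17.3 and 16.5 FPKM to 5.45, 7.95 and 10.4 (log2 change -0.99, SE 0.18, adjusted p = 0.00967), and the flowering repressors TEM1 and TEM2 had overlapping groups. The calls of BEH2 and EDF3 held whichever library was left out.

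A subset of the brassinosteroid biosynthesis genes fell together in bes1-D. Of the 13 genes on the biosynthesis list 6 fell and none rose, and the median log2 change was -0.25 against -0.06 over all loci. CYP90D1 (AT3G13730, chromosome 3, 4497893 to 4500920, minus strand), a C-23 hydroxylase, went from 10.04, 7.75 and 9.77 FPKM in wild type to 0.63, 0.96 and 1.15 in bes1-D. The lowest wild-type library was several times the highest bes1-D library (log2 change -2.41, SE 0.16, adjusted p = 2.58e-05 by limma). BR6OX2 (AT3G30180, chromosome 3, 11810726 to 11813883, plus strand), the oxidase that forms brassinolide, measured 15.5, 15.8 and 17.2 FPKM in wild type and 3.59, 3.2 and 3.43 in bes1-D. Both groups were tight and well apart (log2 change -1.96, SE 0.10, adjusted p = 4.85e-06). CPD (AT5G05690, chromosome 5, 1702640 to 1706948, minus strand), the most abundant of the 6 in FPKM and a cytochrome P450 whose loss makes dwarf plants, fell from 70.1, 67.9 and 72.5 FPKM to 22.7, 17.41 and 21.1 (log2 change -1.74, SE 0.11, adjusted p = 2.58e-05). It overlaps AT5G05680 on the map. DWF4 (AT3G50660), the C-22 hydroxylase and a rate-limiting enzyme of the pathway, measured 9.89, 9.16 and 10.5 FPKM in wild type and 2.35, 3.04 and 2.17 in bes1-D (log2 change -1.63, SE 0.14, adjusted p = 0.000225). ROT3 (AT4G36380), a homologue of CYP90D1 with the same kind of reaction, measured 8.4, 7.85 and 8.49 against 3.54, 3.43 and 2.87 (log2 change -1.11, SE 0.11, adjusted p = 0.00067). In all 5 genes the groups were far apart, and the calls held whichever library was left out. Each was also lower in bes1-D than in RAV1 over-expression, a contrast in which 28.0% of all loci were called lower, with log2 differences from -2.42 (CYP90D1) to -0.97 (ROT3). The remaining call, BR6OX1 (AT5G38970), was low and was named after its values were seen, at 1.55, 1.39 and 1.04 FPKM in wild type and 0.53, 0.42 and 0.25 in bes1-D (log2 change -0.73, adjusted p = 0.0382). It passed the filter through wild type alone, where it had to be high. It was lost in every fit that left out a library, either by the filter or at adjusted p values from 0.0602 to 0.0955, and under quantile normalization (0.0693).

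The genes of the earlier sterol steps and DET2 gave no call. DET2 (AT2G38050), a steroid reductase of the pathway, measured 23.1, 21.2 and 19.6 FPKM in wild type and 21.3, 21.1 and 17.8 in bes1-D. Its groups overlapped (log2 change -0.08, adjusted p = 0.711 by limma). DWF1, DWF5, DWF7, FK, HYD1 and SMT1, which act in sterol synthesis, were not called either, though DWF7 was called lower without bes1-D replicate 3 (log2 change -0.32, adjusted p = 0.0466). The plot of biosynthesis genes by library shows these genes beside the 6 that fell.

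**Figure D2:**
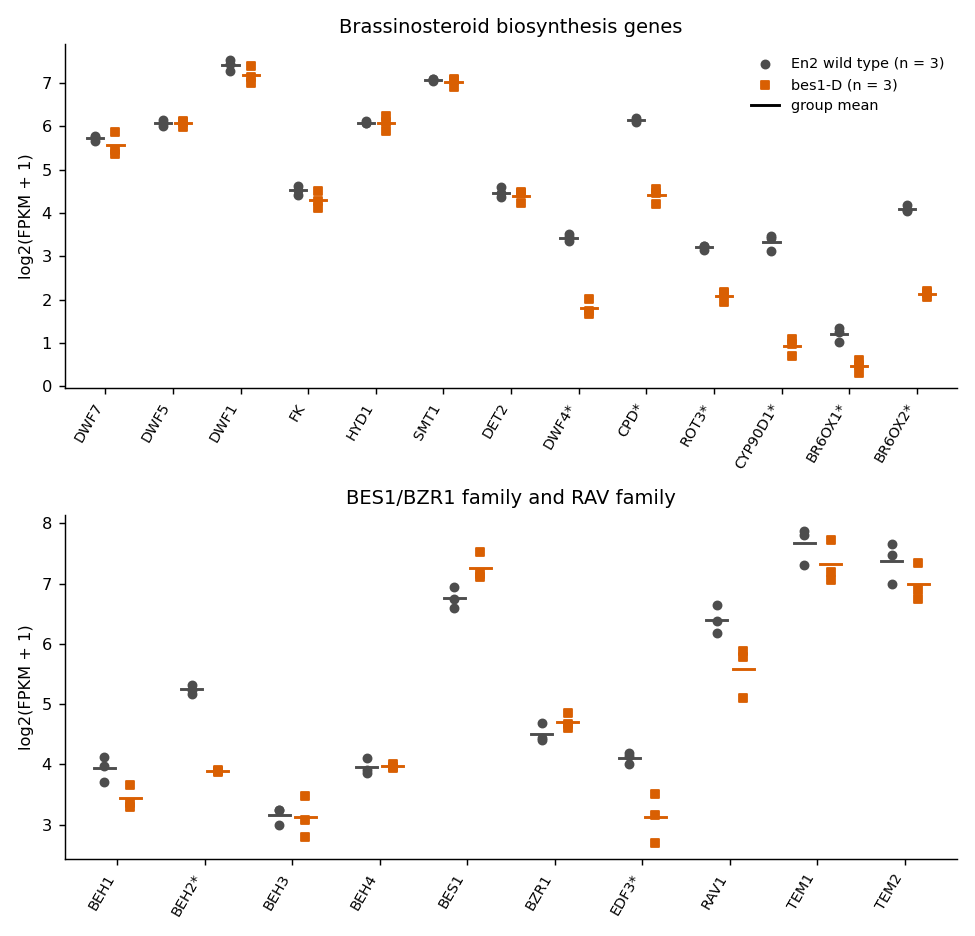
Levels as log2(FPKM + 1) on the vertical axis for the 13 brassinosteroid biosynthesis genes (top) and the tested BES1/BZR1 and RAV family members (bottom). In the top panel the sterol genes are on the left, followed by DET2 and the other genes. The 3 En2 wild type libraries are grey circles, the 3 bes1-D libraries are orange squares, and bars are at the group means. Asterisks mark called genes, and the 6 called biosynthesis genes sit lower in bes1-D while the sterol genes and DET2 stay close together.

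Of 7 tested genes that inactivate brassinosteroids 2 fell, against 5.77% of all loci tested. SOT12 (AT2G03760), a sulfotransferase, measured 24.2, 24.1 and 25.9 FPKM in wild type and 12.4, 13.8 and 13.0 in bes1-D (log2 change -0.87, SE 0.11, adjusted p = 0.00185 by limma). The groups were clearly apart, and the call held without any 1 library. BAT1 (AT4G31910), an acyltransferase, fell too (log2 change -0.61, adjusted p = 0.0244), but its call was lost without any 1 wild-type library, or without replicate 1 or 2 of bes1-D (0.0597 to 0.0894). BAS1, the C-26 hydroxylase, measured 3.98, 2.72 and 2.82 FPKM in wild type and 6.61, 5.07 and 4.13 in bes1-D. It had no overlap, as in 29.5% of all loci tested, and no call (adjusted p = 0.096 by limma).

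The genes for perception and signalling showed no call. Among the 13 tested, limma called none, and 4 had an unadjusted p under 0.05, against 23.5% of all loci tested. The receptor BRI1 (AT4G39400) measured 38.2, 38.2 and 38.5 FPKM in wild type and 39.7, 33.2 and 35.4 in bes1-D, with overlapping groups. BIN2, the kinase that restrains BES1, measured 102, 103 and 100 FPKM in wild type and 117, 123 and 146 in bes1-D (log2 change 0.33, adjusted p = 0.0697). BIN2 passed under trimmed-mean scaling (adjusted p = 0.0342) and quantile normalization (0.0358). The receptor homologue BRL3 had a log2 change of -0.53 (adjusted p = 0.0663). Without bes1-D replicate 1 or bes1-D replicate 3, 1 gene of the list was called lower.

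Among 17 partners and cofactors of BES1 3 fell and none rose, where 5.77% of all loci tested fell and 2.19% rose. HAT1 (AT4G17460), a homeodomain protein known to act with BES1 in repression, measured 20.1, 21.0 and 17.0 FPKM in wild type and 7.92, 7.41 and 9.45 in bes1-D (log2 change -1.14, SE 0.15, adjusted p = 0.00255 by limma). RD26 (AT4G27410), a drought-responsive NAC factor known to oppose BES1, measured 28.5, 22.5 and 29.8 FPKM against 11.8, 13.9 and 11.2 (log2 change -1.06, SE 0.14, adjusted p = 0.00255). Both had well separated groups and kept their calls without any 1 library. BIM1 (AT5G08130), a basic helix-loop-helix (HLH) partner of BES1, fell as well (log2 change -0.51, adjusted p = 0.0156), but its call was lost without En2 replicate 2 (0.0566) or En2 replicate 3 (0.0585).

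Growth genes did not move in 1 direction. Among 17 tested alpha-expansins, proteins that loosen the cell wall, EXPA11 rose and 4 fell. EXPA7 (AT1G12560), a root hair expansin, measured 8.66, 10.3 and 12.1 FPKM in wild type and 3.58, 3.75 and 2.92 in bes1-D (log2 change -1.35, SE 0.17, adjusted p = 0.00226 by limma). EXPA9 (AT5G02260) measured 47.8, 34.5 and 34.8 FPKM against 18.7, 16.5 and 15.7 (log2 change -1.14, SE 0.13, adjusted p = 0.00144). EXPA17, an expansin of roots, was low, at 4.92, 2.63 and 4.47 FPKM against 1.56, 0.84 and 0.98 (log2 change -1.22, adjusted p = 0.00932). In these 3 genes no bes1-D library reached the lowest wild-type library, and the calls held without any 1 library. EXPA10 (log2 change -0.89, adjusted p = 0.0138) lost its call without En2 replicate 3 (0.0504). EXPA11 rose (log2 change 0.69, adjusted p = 0.0479), a call that held only without bes1-D replicate 1 among the 6 fits (adjusted p from 0.0782 to 0.14 in the others). EXPA8, an expansin known to respond to brassinosteroids, measured 8.01, 10.9 and 8.72 FPKM in wild type and 20.8, 12.9 and 23.8 in bes1-D. It had no overlap, as in 29.5% of all loci tested, and no call (adjusted p = 0.27 by limma). The limma fit without the RAV1 over-expression libraries called EXPA8 higher (log2 change 0.95, adjusted p = 0.035).

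The XTH genes, which encode enzymes that cut and rejoin xyloglucan chains of the wall, split. Of 27 tested 3 rose and 7 fell, and the median log2 change was 0.14. Trimmed-mean scaling gave 5 higher and 6 lower. XTH7 (AT4G37800) measured 241, 232 and 236 FPKM in wild type and 385, 408 and 488 in bes1-D (log2 change 0.84, SE 0.10, adjusted p = 0.00185 by limma), with all bes1-D libraries far above wild type. XTH5 (AT5G13870) fell from 16.4, 18.8 and 19.8 FPKM to 5.57, 5.33 and 8.21 (log2 change -1.41, SE 0.18, adjusted p = 0.00229). XTH31 (AT3G44990) fell from 165, 154 and 153 FPKM to 101, 101 and 106 (log2 change -0.61, SE 0.08, adjusted p = 0.00208). XTH14 and XTH26, known from roots and root hairs, fell as well (log2 changes -0.91 and -1.14, adjusted p = 0.00541 and 0.00486). These 5 calls held without any 1 library. Named after their values were seen, XTH4 and XTH23 rose (log2 changes 0.66 and 1.07) and XTH12, XTH13 and XTH15 fell (-0.67, -0.84 and -0.59), and each of these 5 calls was lost without at least 1 library (adjusted p up to 0.123). XTH12 and XTH13 are near-identical neighbours whose reads may be shared. The count of lower genes was 4 without En2 replicate 2 or En2 replicate 3.

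The SAUR genes, small auxin-responsive genes of which many promote cell expansion, had the highest list median of the growth genes, 0.89 against -0.06 over all loci, and 14 of 17 tested had a positive change. Of the 17 tested 3 rose and 2 fell. With a pseudocount of 0.1 only 1 was called higher, as SAUR22 and SAUR64, both low, missed the threshold (adjusted p = 0.0583 and 0.159). SAUR15 (AT4G38850, chromosome 4, 18126057 to 18126829, plus strand), known to respond to auxin and brassinosteroid, measured 4.38, 7.8 and 2.28 FPKM in wild type and 14.6, 11.9 and 13.2 in bes1-D (log2 change 1.4, SE 0.29, adjusted p = 0.0205 by limma). SAUR22 (AT5G18050), of the SAUR19 cluster, measured 2.94, 2.16 and 0.33 FPKM against 7.99, 7.86 and 11.7 (log2 change 1.98, SE 0.40, adjusted p = 0.0178). SAUR64 (AT1G29450) measured 0.58, 1.69 and 1.87 FPKM against 5.08, 7.39 and 9.41 (log2 change 1.81, adjusted p = 0.0205). The groups did not overlap in any of the 3, but the wild-type libraries differed several-fold among themselves. With 1 library left out, SAUR15, SAUR22 and SAUR64 lost their calls in 3, 1 and 4 of the 6 fits (adjusted p up to 0.0729 by limma). SAUR36 and SAUR41 fell (log2 changes -0.90 and -0.78, adjusted p = 0.0464 and 0.0419), and neither passed under trimmed-mean scaling or quantile normalization. Without En2 replicates 1, 2 and 3 and bes1-D replicates 1, 2 and 3, the count of higher SAUR genes was 1, 3, 3, 2, 4 and 0, and that of lower ones 0, 0, 0, 0, 1 and 1. These counts include genes gained in a fit, such as SAUR63 without En2 replicate 2. SAUR22 and its neighbours, and SAUR62 to SAUR67 beside SAUR64, are close copies, so that reads may be divided among them in a way not shown here.

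**Figure D3:**
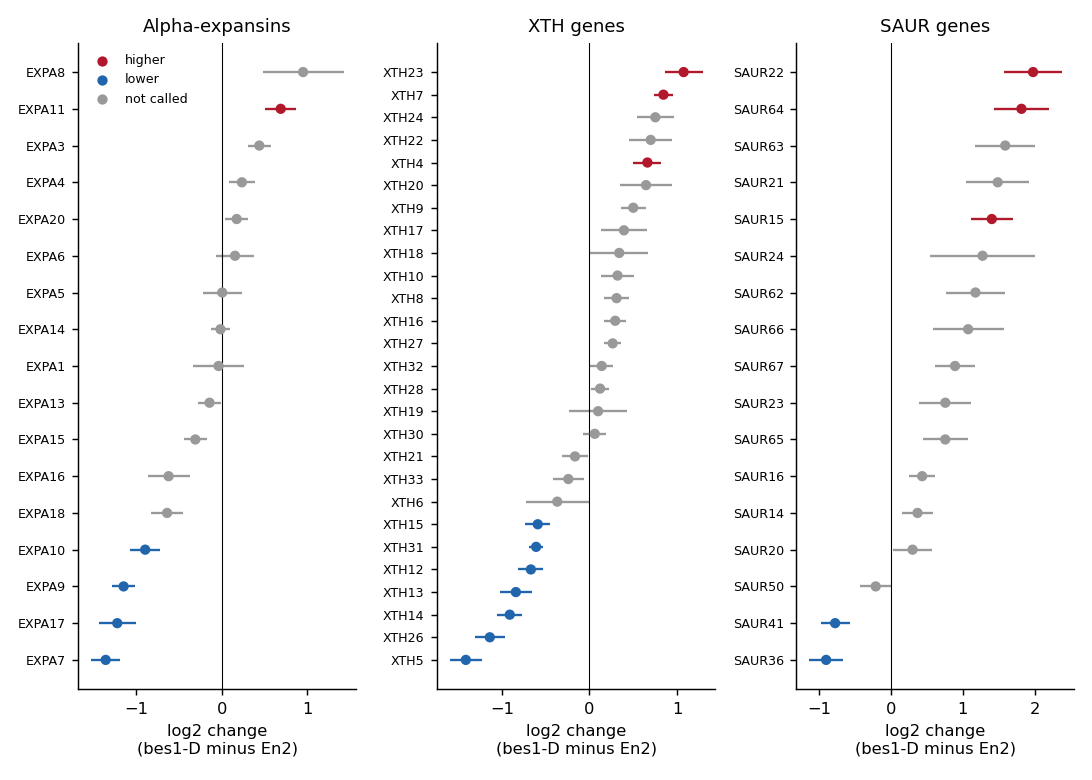
Log2 change (bes1-D minus En2 wild type, horizontal axis) of every tested alpha-expansin (left), XTH gene (middle) and SAUR gene (right), with the point at the estimate and the line at 1 SE on either side. Red marks the called higher genes and blue the called lower genes, and most SAUR genes lie right of 0 while expansins and XTH genes lie on both sides.

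The HLH growth regulators and the cellulose synthesis genes gave no call. Of 16 tested HLH genes limma called none (5 at an unadjusted p under 0.05, against 23.5% of all loci tested). The growth repressor IBH1 (AT2G43060) measured 6.57, 5.78 and 6.77 FPKM in wild type and 2.35, 4.99 and 3.87 in bes1-D (log2 change -0.68, adjusted p = 0.0537). BEE3, a brassinosteroid early response gene, measured 25.6, 38.9 and 32.9 FPKM against 45.3, 48.4 and 70.8 (log2 change 0.73, adjusted p = 0.0971). In both the groups did not overlap, as in 29.5% of all loci tested. Without bes1-D replicate 2, 1 HLH gene was called lower. Of 12 cellulose synthesis genes limma called none, and none had an unadjusted p under 0.05. CESA1, a subunit of the primary wall enzyme, had overlapping groups and a log2 change of 0.04.

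Genes of the iron deficiency response fell and ferritin genes rose. Plants under iron shortage induce uptake and transport genes through a cascade of basic HLH factors, and store surplus iron in ferritin. Of the 21 tested members of the iron list 9 fell and 3 rose, with a median log2 change of -0.76 against -0.06 over all loci. The 3 genes that rose were the ferritins FER1, FER3 and FER4. FER1 (AT5G01600, chromosome 5, 227953 to 230051, minus strand) measured 65.9, 70.4 and 70.4 FPKM in wild type and 209, 263 and 229 in bes1-D. Its lowest bes1-D library was well above its highest wild-type library (log2 change 1.74, SE 0.10, adjusted p = 1.15e-05 by limma). FER4 (AT2G40300), named after its values were seen, measured 29.7, 39.5 and 43.1 FPKM against 67.5, 85.3 and 105 (log2 change 1.17, SE 0.17, adjusted p = 0.0046). FER3, likewise named afterwards, rose less (log2 change 0.51, adjusted p = 0.0307), and only without bes1-D replicate 1 did its call hold when a library was left out.

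On the falling side, AT2G30766 (chromosome 2, 13107583 to 13110480, plus strand), annotated only as an uncharacterized protein, measured 55.4, 44.9 and 38.0 FPKM in wild type and 1.13, 0.92 and 1.91 in bes1-D. The ratio of means was 34.9 (log2 change -4.35, SE 0.22, adjusted p = 6.17e-06 by limma). The locus overlaps AT2G30760 and AT2G30770, and the library kit does not mark strand. PYE (AT3G47640), a basic HLH regulator of iron balance, measured 20.1, 26.1 and 28.5 FPKM against 8.98, 8.75 and 10.2 (log2 change -1.32, SE 0.15, adjusted p = 0.00148). BHLH101 (AT5G04150), a factor induced by iron shortage, measured 4.19, 2.35 and 2.32 FPKM against 0, 0.32 and 0 (log2 change -1.82, SE 0.24, adjusted p = 0.00252). FRO3 (AT1G23020), a ferric reductase of mitochondria, measured 53.8, 53.5 and 56.4 FPKM against 35.5, 32.4 and 31.8 (log2 change -0.70, SE 0.08, adjusted p = 0.00148). The groups of all 4 loci were apart, and their calls, like those of FER1 and FER4, held without any 1 library.

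The other called members were named after their values were seen. OPT3, a transporter that carries iron in the phloem, fell from 113, 104 and 101 FPKM to 68.9, 54.5 and 36.6 (log2 change -1.02, adjusted p = 0.0106). NAS2, a nicotianamine synthase, fell from 1.72, 1.86 and 2.93 FPKM to 0.15, 0 and 0.58 (log2 change -1.36, adjusted p = 0.00603). AT1G47395 and AT1G47400, adjacent and similar loci given without a symbol in the annotation used, had log2 changes of -2.53 and -1.81 (adjusted p = 0.00625 and 0.0353). The log2 change of BTS, an E3 ligase that restrains the response, was -1.09 (0.0241). With 1 library left out the call of AT1G47400 held only without bes1-D replicate 3 and that of BTS only without bes1-D replicate 1 or 2 (adjusted p up to 0.111 in the others). The uptake genes of the root surface were not called: IRT1, the iron transporter, measured 65.4, 34.8 and 34.5 FPKM against 42.1, 20.4 and 31.7 and overlapped, as did the reductase gene FRO2. FRU, the master regulator also called FIT1, had a log2 change of -0.76 (adjusted p = 0.108). BHLH38 and BHLH39 had low bes1-D values without overlap, as in 29.5% of all loci tested, and missed the threshold (log2 changes -1.44 and -2.49, adjusted p = 0.0674 and 0.0545 by limma). The limma fit without the RAV1 over-expression libraries called both lower (adjusted p = 0.0224 and 0.000875). With a pseudocount of 0.1 BHLH39 was called lower (0.0499). With 1 library left out, 7 or 8 members fell and 2 or 3 rose. The list of root markers, below, also fell, and its part in the iron result was not tested.

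**Figure D4:**
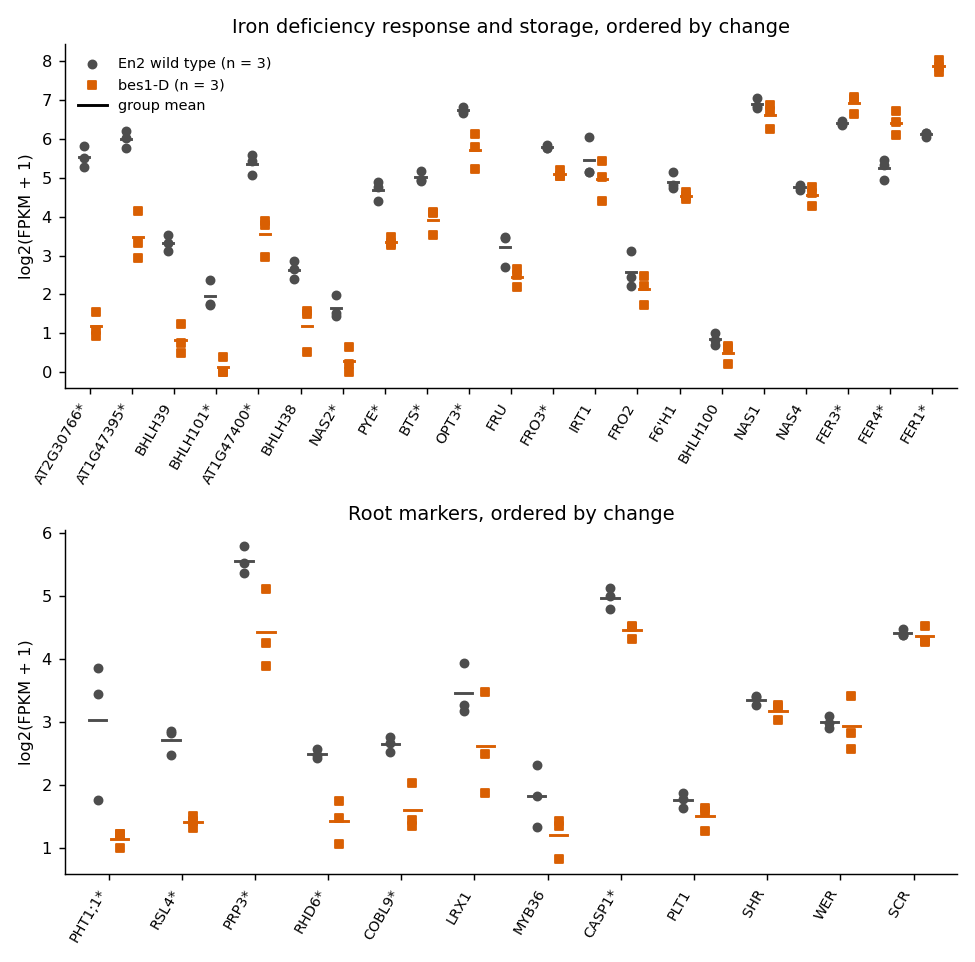
Levels as log2(FPKM + 1) on the vertical axis for the 21 tested iron genes (top) and the 12 root markers (bottom), ordered from the largest fall to the largest rise, with 3 En2 wild type libraries as grey circles, 3 bes1-D libraries as orange squares and bars at the group means. Asterisks mark called genes, and the ferritins FER1, FER3 and FER4 are the genes at the right end that lie above wild type.

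Root markers were lower in bes1-D. Of the 12 markers 6 fell and none rose, all 12 estimates were below 0, and the median log2 change was -0.74 against -0.06 over all loci. Their summed level was 132 to 167 FPKM in wild type and 83.5 to 112 in bes1-D, which do not overlap. The called members were mostly root hair genes. RSL4 (AT1G27740), a basic HLH factor that sets root hair length, measured 4.58, 6.21 and 6.06 FPKM in wild type and 1.68, 1.83 and 1.49 in bes1-D (log2 change -1.30, SE 0.15, adjusted p = 0.00148 by limma). RHD6 (AT1G66470), which acts before RSL4 in root hair formation, measured 4.38, 4.55 and 4.93 FPKM against 1.79, 1.08 and 2.35 (log2 change -1.06, SE 0.19, adjusted p = 0.00923). Both kept their calls without any 1 library. COBL9 and PRP3, of the root hair wall, and the phosphate transporter PHT1;1 also fell (log2 changes -1.04, -1.14 and -1.87), as did the endodermal gene CASP1, named after its values were seen (-0.52). Each of these 4 calls was lost in at least 1 fit (adjusted p up to 0.133), those of PRP3 and PHT1;1 in 5 of the 6. PHT1;1 has a near-identical copy. SCR and WER, which mark the endodermis and the root epidermis, overlapped between groups and had log2 changes of -0.05 and -0.06, near the median of all loci. SHR and PLT1 were not called. Without En2 replicates 1, 2 and 3 and bes1-D replicates 1, 2 and 3, 3, 2, 5, 5, 3 and 3 markers fell. EXPA7, EXPA17, XTH14 and XTH26 above are known from roots, and whether a smaller share of root or of root hairs in the seedlings goes with their fall was not tested.

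Flavonoid genes fell. Of 14 tested members of the list 6 fell and none rose, with a median log2 change of -0.48. FLS1 (AT5G08640), flavonol synthase, measured 51.4, 45.3 and 40.0 FPKM in wild type and 27.7, 20.5 and 14.8 in bes1-D (log2 change -1.11, SE 0.18, adjusted p = 0.00727 by limma). CHI (AT3G55120), chalcone isomerase, measured 51.9, 50.5 and 39.3 FPKM against 24.0, 31.6 and 25.5 (log2 change -0.78, SE 0.13, adjusted p = 0.00691). MYB12 (AT2G47460), a regulator of flavonol synthesis, measured 4.08, 3.16 and 3.42 FPKM against 1.39, 1.83 and 1.09 (log2 change -0.91, SE 0.16, adjusted p = 0.0083). In each the groups were apart. CHIL, CHS, which encodes the entry enzyme chalcone synthase, and UGT78D2 fell too (log2 changes -0.57, -0.86 and -0.57), the last named after its values were seen. CHS lost its call without En2 replicate 2 (0.0512) and UGT78D2 in every fit but that without bes1-D replicate 2 (up to 0.102), while the other 4 kept theirs. All 6 were also lower than in RAV1 over-expression, with log2 differences from -1.21 (CHI) to -0.45 (UGT78D2). In that contrast 28.0% of all loci were called lower in bes1-D.

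Glucosinolate genes, which make sulfur-rich defence compounds, were lower as well. Of 13 tested genes of the indole glucosinolate and camalexin list 4 fell and none rose, and the count was 4 in every fit that left out a library. CYP79B2 (AT4G39950), which converts tryptophan at the start of the pathway, measured 60.7, 55.3 and 48.1 FPKM in wild type and 22.5, 23.2 and 16.1 in bes1-D (log2 change -1.38, SE 0.22, adjusted p = 0.00691 by limma). CYP79B3, its homologue, CYP83B1, the next enzyme, and SOT16, a late sulfotransferase, had log2 changes of -0.81, -0.78 and -0.66 (adjusted p = 0.00656, 0.00268 and 0.00603). Of 16 tested genes for aliphatic glucosinolates 6 fell, all 16 estimates were below 0 and the median was -0.50. SOT17 (AT1G18590), the sulfotransferase of the last core step, measured 77.6, 69.6 and 64.4 FPKM against 34.0, 33.4 and 37.4 (log2 change -0.99, SE 0.17, adjusted p = 0.00781), and its call held without any 1 library. SUR1, MAM3, CYP79F2 and MYB29 fell by smaller margins or at lower levels (log2 changes -0.58, -0.60, -0.88 and -1.45), and so did BCAT4, named after its values were seen (-0.47). The calls of these 5 were each lost in at least 1 fit (adjusted p up to 0.152), and those of MAM3 and CYP79F2 in all 6. Trimmed-mean scaling and quantile normalization each gave 4 lower genes, without CYP79F2 (adjusted p = 0.056 and 0.059 by limma). MYB29 passed the filter through wild type alone, so it had to differ, and it was not tested without any 1 wild-type library. Without En2 replicates 1, 2 and 3 and bes1-D replicates 1, 2 and 3 the count was 2, 1, 3, 3, 2 and 3.

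The genes of photosynthesis itself showed no call, but regulators and enzymes of chlorophyll synthesis changed in both directions. HEMA1 (AT1G58290), which encodes glutamyl-tRNA reductase, the first committed enzyme of chlorophyll synthesis, measured 72.4, 75.4 and 73.0 FPKM in wild type and 164, 139 and 157 in bes1-D. The groups were tight and about 2-fold apart (log2 change 1.04, SE 0.10, adjusted p = 0.000435 by limma). PORB (AT4G27440), a protochlorophyllide reductase, measured 284, 319 and 299 FPKM against 594, 412 and 625 (log2 change 0.83, SE 0.15, adjusted p = 0.0106). GATA2 (AT2G45050), a light-response factor known to be repressed by BZR1, fell from 17.5, 20.7 and 19.8 FPKM to 9.31, 11.3 and 9.94 (log2 change -0.87, SE 0.11, adjusted p = 0.00179). The calls of these 3 held without any 1 library. GLK1 and CGA1, regulators of chloroplast development, fell (log2 changes -0.88 and -0.78), with calls lost in 5 and 2 of the 6 fits (adjusted p up to 0.125). Without En2 replicate 1 or En2 replicate 2, 1 gene of the 17 was lower. Among 12 Calvin cycle genes limma called none, with 3 at an unadjusted p under 0.05, against 23.5% of all loci tested.

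Light signalling genes included PIF1 (AT2G20180), a factor that holds back greening and germination, which measured 29.97, 27.8 and 31.4 FPKM in wild type and 53.0, 50.9 and 57.7 in bes1-D. All bes1-D libraries were above wild type (log2 change 0.84, SE 0.09, adjusted p = 0.000977 by limma) and kept its call without any 1 library. PIF3 and ELIP2, a light-stress protein, fell (log2 changes -0.54 and -1.20), with calls lost in 4 and 6 of the 6 fits. The flowering repressor SVP (AT2G22540) rose from 32.2, 29.0 and 29.3 FPKM to 41.4, 49.9 and 54.3 (log2 change 0.66, SE 0.10, adjusted p = 0.00572), the called gene among 4 tested of the flowering list, and its call held without any 1 library.

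Hormone lists other than brassinosteroid had calls in small numbers. Of 9 tested type-A response regulators, which are induced by cytokinin and damp its signal, ARR3, ARR4 and ARR7 fell, and all 9 estimates were below 0 (median -0.54). ARR7 (AT1G19050) measured 26.2, 25.0 and 27.5 FPKM in wild type and 12.4, 14.3 and 13.4 in bes1-D (log2 change -0.93, SE 0.11, adjusted p = 0.00167 by limma). ARR4 (AT1G10470) measured 81.7, 64.8 and 68.8 FPKM against 45.5, 38.8 and 45.7 (log2 change -0.71, SE 0.10, adjusted p = 0.00413), and ARR3 had a log2 change of -1.14 (0.00827). The groups were apart in all 3, and the calls held without any 1 library. Of 9 tested ethylene synthesis genes 4 fell, among them ACS7, ACS11 and ACO5. ACS7 (AT4G26200), which makes the ethylene precursor, measured 9.23, 17.0 and 18.0 FPKM against 4.76, 6.11 and 3.89 (log2 change -1.38, SE 0.24, adjusted p = 0.00987), and ACO5 had a log2 change of -0.70 (0.0115). ACS11, which passed the filter only with the wild-type libraries, had a log2 change of -1.15, and its call was lost without En2 replicate 1, 2 or 3 or bes1-D replicate 2 (adjusted p up to 0.0614). The calls of ACS7 and ACO5 held without any 1 library, whereas the count for the list was 2 without En2 replicate 1, 2 or 3 or bes1-D replicate 2.

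In the jasmonate list 3 of 20 tested genes fell and 2 rose, and 6 were lower in the fit of 6 libraries. Over all loci tested 5.77% fell and 2.19% rose. LOX2 (AT3G45140), a chloroplast lipoxygenase of jasmonate synthesis, measured 267, 212 and 212 FPKM in wild type and 113, 126 and 75.7 in bes1-D (log2 change -1.15, SE 0.18, adjusted p = 0.00648 by limma). AOC3 (AT3G25780), an allene oxide cyclase, measured 41.9, 41.2 and 41.7 FPKM against 22.1, 22.7 and 25.7 (log2 change -0.80, SE 0.11, adjusted p = 0.00302). Both were apart from wild type and held without any 1 library. MYC2, the central jasmonate factor, fell as well (log2 change -0.56, adjusted p = 0.0379), but 2 other allene oxide cyclase genes, AOC1 and AOC2, rose (0.61 and 0.60, adjusted p = 0.027 and 0.0208). The 3 cyclase genes lie side by side on chromosome 3. The calls of MYC2, AOC1 and AOC2 were lost in 5, 5 and 4 of the 6 fits, and no gene of the list was higher without En2 replicate 1, 2 or 3 or bes1-D replicate 2.

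Single calls stood in the auxin and gibberellin lists, where 7.96% of all loci tested were called. They were 1 of 10 tested Aux/IAA genes, 1 of 14 for auxin conjugation, synthesis and transport, and 1 of 19 for gibberellin. IAA16, an auxin response repressor, fell (log2 change -0.47, adjusted p = 0.0119, and 0.0537 without En2 replicate 2), and so did GH3.1, which conjugates auxin (-1.45, 0.00351), at 2.66, 2.57 and 4.12 FPKM in wild type and 0.29, 0.86 and 0.37 in bes1-D. GH3.1 passed the filter through wild type alone and dropped below it without any 1 wild-type library. GA2OX2, which inactivates gibberellin, rose from 3.21, 3.93 and 4.35 FPKM to 8.18, 8.59 and 7.89 (log2 change 0.94, adjusted p = 0.0227), a call lost in 5 of the 6 fits. In the lists for the clock, senescence, heat and the cell cycle, PRR7 and SAG29 rose (0.31 and 1.56) and HSFA2 and SIM fell (-0.83 and -1.10). These were 1 of 13, 1 of 8, 1 of 8 and 1 of 10 tested genes. HSFA2 passed the filter only with the wild-type libraries. Of these 4 SAG29, a senescence-associated sugar transporter, kept its call without any 1 library.

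Stress, surface and water channel genes also had members that rose. Of 10 tested cold response genes ERD10, COR47 and COR413IM1 rose and none fell. ERD10 (AT1G20450), a dehydrin, measured 46.9, 45.5 and 54.5 FPKM in wild type and 68.1, 72.3 and 73.9 in bes1-D (log2 change 0.54, SE 0.10, adjusted p = 0.00924 by limma). COR47, its neighbour and also a dehydrin, had a log2 change of 0.47 (0.0121) and COR413IM1 of 0.68 (0.0299). The call of COR47 was lost without En2 replicate 2 (0.0586), and that of COR413IM1 held only without En2 replicate 2 or bes1-D replicate 3. Of 11 tested cuticular wax genes CUT1, ABCG12 and MAH1 rose and none fell. CUT1 (AT1G68530), an elongase for wax, measured 221, 205 and 218 FPKM against 293, 310 and 292 (log2 change 0.47, SE 0.08, adjusted p = 0.00823). MAH1, a wax alkane hydroxylase, stood at 0.28, 0.13 and 0.16 FPKM in wild type and 3.80, 2.46 and 4.45 in bes1-D (log2 change 1.92, adjusted p = 0.00112), so it passed the filter through bes1-D. ERD10 and CUT1 kept their calls without any 1 library, and the wax count was 1 without bes1-D replicate 1 or bes1-D replicate 2. Of 19 aquaporins 3 rose and 3 fell, against 4 higher and 1 lower under trimmed-mean scaling. PIP2;6 (AT2G39010) rose from 211, 212 and 205 FPKM to 302, 287 and 273 (log2 change 0.46, SE 0.07, adjusted p = 0.00676), and PIP2;4 (AT5G60660) fell from 36.7, 42.1 and 30.3 to 18.1, 19.0 and 22.4 (-0.84, SE 0.13, 0.00552). Both held without any 1 library. The others, PIP1;3 and TIP1;2 higher and TIP2;2 and TIP2;3 lower (the last named after its values were seen), were each lost in 5 of the 6 fits (adjusted p up to 0.143). The counts were 1 higher and 1 lower without En2 replicate 1, 2 or 3 or bes1-D replicate 3, 1 higher and 3 lower without bes1-D replicate 1, and 3 higher and 1 lower without bes1-D replicate 2. Of 19 pattern-triggered immunity genes RBOHD and BIR1 rose and EFR fell (log2 changes 0.61, 0.47 and -0.63), each lost in 3 to 5 of the 6 fits. Over all loci tested 2.19% rose and 5.77% fell, so 1 of 19 lower is near that share. No member of the immunity list was higher without En2 replicate 1, En2 replicate 2 or bes1-D replicate 2, and none was lower without En2 replicate 2 or 3 or bes1-D replicate 1 or 3.

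**Figure D5:**
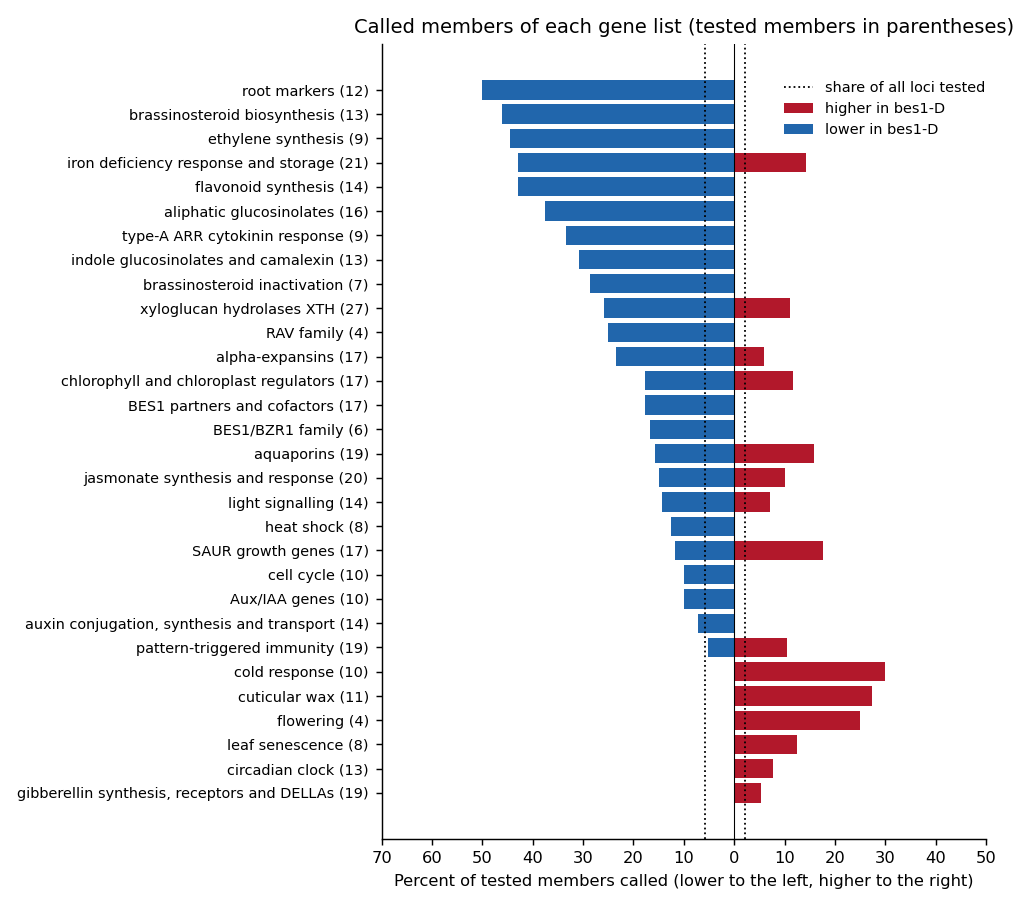
Percent of tested members called lower (blue, to the left) and higher (red, to the right) in bes1-D for the gene lists with at least 1 call, with the number of tested members in parentheses and dotted lines at the shares over all loci (5.77% lower and 2.19% higher). Root markers and brassinosteroid biosynthesis have the longest bars to the left, and the bar of cuticular wax counts MAH1, which passed the filter through bes1-D.

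In 16 of the 46 lists limma called no gene. Among those not given above, the number with an unadjusted p under 0.05 was 2 of 13 for abscisic acid response, 2 of 12 for salicylic acid defence and 0 of 11 for ethylene signalling. It was 4 of 7 for jasmonate/ethylene defence, 3 of 11 for hypoxia response and 4 of 6 for stomatal development. The lists for organ boundary (1 of 3), nitrate (1 of 5), phosphate starvation (0 of 7) and touch (0 of 2) were also without a call. Of all loci tested 23.5% had an unadjusted p under 0.05. EPF2 (AT1G34245), a peptide that limits stomatal density, measured 9.50, 8.14 and 8.75 FPKM in wild type and 1.71, 3.51 and 6.69 in bes1-D (log2 change -1.11, adjusted p = 0.0679), and all 6 stomatal genes had negative estimates without a call. The hypoxia gene PDC1, a pyruvate decarboxylase, measured 12.6, 17.57 and 30.2 FPKM against 27.5, 61.1 and 64.3, with overlapping groups (log2 change 1.29, adjusted p = 0.0624). EPF2 and PDC1 were chosen with their values in view. With 1 library left out, a single member was called in the hypoxia list (without En2 replicate 3 or bes1-D replicate 1), the stomatal list (without bes1-D replicate 1 or 3), the jasmonate/ethylene defence list (without En2 replicate 1 or bes1-D replicate 3) and the nitrate list (without En2 replicate 2).

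The largest changes lay mostly outside the lists. AT1G57720 (chromosome 1, 21377320 to 21380382, plus strand), a gamma chain of translation elongation factor EF1B, measured 269, 273 and 266 FPKM in wild type and 29.4, 30.4 and 35.9 in bes1-D. Its replicates were tight, the ratio of means was 8.44, and it had the smallest adjusted p of all loci in this contrast (log2 change -3.04, SE 0.09, adjusted p = 1.08e-07 by limma). The other gene for this subunit, AT1G09640, measured 223, 226 and 223 FPKM against 190, 194 and 196 without a call (log2 change -0.21, adjusted p = 0.153). AT3G20790, a Rossmann-fold protein gene, fell from 38.5, 35.1 and 38.6 FPKM to 5.30, 4.81 and 5.01 (log2 change -2.67, adjusted p = 3.02e-07). It overlaps annotated neighbours, of which AT3G20800 was not called (log2 change -0.12) and TOP6B fell (-0.49, adjusted p = 0.0439). AT5G05250 and AT5G57785, uncharacterized loci, fell from means of 35.9 and 37.4 FPKM to 2.80 and 3.56 (log2 changes -3.32 and -3.07). AGP30, an arabinogalactan protein of roots, fell from 122, 115 and 110 FPKM to 26.7, 11.5 and 12.6 (log2 change -2.79, SE 0.25, adjusted p = 0.000501). These 5 falls held without any 1 library. Further down the order came AT4G15660, of the thioredoxin superfamily, the defensin-like AT4G22230, the RING/U-box gene AT3G11110, the peroxidase gene AT5G19890 and AT5G57567, with log2 changes from -2.66 to -2.02. The last 2 lost their calls in 3 and 4 of the 6 fits.

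AT5G50562 (chromosome 5, 20580269 to 20580442, minus strand), a short uncharacterized locus, was listed at 105, 62.3 and 41.2 FPKM in wild type and at 0 in all bes1-D libraries, and also at 0 in all RAV1 over-expression libraries. The locus it overlaps, AT5G50565, measured 2.99, 4.19 and 4.60 FPKM in wild type and 2.94, 2.45 and 4.25 in bes1-D, and AT5G50560 beside it 6.03, 11.01 and 3.15 against 5.04, 3.73 and 2.73, both with overlapping groups. As values at 0 can be failed estimates, no fold is given.

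Among the largest rises NEET (AT5G51720, chromosome 5, 21009347 to 21010345, plus strand), which binds a 2Fe-2S cluster, measured 16.5, 21.0 and 33.9 FPKM in wild type and 94.4, 130 and 98.3 in bes1-D (log2 change 2.18, SE 0.24, adjusted p = 0.00144 by limma). All bes1-D libraries were several times wild type. NAS3 (AT1G09240), a nicotianamine synthase, went from a mean of 4.09 FPKM to 18.5 (log2 change 1.87, adjusted p = 0.0491), but lost its call in every fit that left out a library. ALMT1 (AT1G08430), a malate transporter of roots, rose from 3.03, 2.69 and 2.21 FPKM to 11.6, 13.7 and 14.4 (log2 change 1.97, SE 0.19, adjusted p = 0.000492). AT3G24542, annotated as related to beta-galactosidase, rose from 4.62, 3.59 and 3.77 FPKM to 25.4, 23.2 and 26.9 (log2 change 2.39, SE 0.20, adjusted p = 0.000233). AT3G54730, annotated as a transcription repressor, GRP20, QQS, a regulator of starch, and AT1G36240 rose with log2 changes of 2.24, 2.18, 2.02 and 1.85. These 7 loci, NAS3 aside, kept their calls without any 1 library, but GRP20 passed the filter only with the bes1-D libraries, where it was high. The defensin-like AT5G33355 stood at 2.41, 0 and 1.06 FPKM in wild type and 36.8, 49.8 and 7.44 in bes1-D, and its call (adjusted p = 0.0456) was lost in 5 of the 6 fits. SAUR22 and SAUR64, above, were also among the 15 largest rises.

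The remaining large rises were of loci nearly silent in wild type. AT2G12040 (chromosome 2, 4855657 to 4856532, plus strand), annotated as a pseudogene, measured 0.13, 0 and 0 FPKM in wild type and 18.6, 20.9 and 19.8 in bes1-D (log2 change 4.32, SE 0.17, adjusted p = 9.36e-07 by limma). The pseudogene AT1G36400 measured 0, 0 and 0.29 FPKM against 13.8, 17.42 and 19.4 (log2 change 4.03, SE 0.17, adjusted p = 1.51e-06). AT3G42723 measured 0, 0.07 and 0 FPKM against 7.69, 5.77 and 5.36 (log2 change 2.82, adjusted p = 2.24e-05). All 3 passed the filter through bes1-D, so they fell below it when a bes1-D library was left out, and RAV1 over-expression means were 0.267, 0 and 0.0833 FPKM. The pseudogene AT1G12670 was uneven, at 2.25, 0 and 0 FPKM against 8.25, 3.01 and 5.17 (adjusted p = 0.0395), and its call was lost in 4 of the 6 fits. It too passed the filter only with the bes1-D libraries.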

How the data were processed

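Whole RNA of 7-day-old seedlings was sequenced by the authors in 9 libraries (paired reads of 100 bases from a TruSeq kit, which does not mark strand, per the labels' protocols). The authors deposited 1 table of FPKM values per locus. The submitters' processing notes name FastQC 0.10.1, TopHat2 and Cufflinks 2.1.1 with the TAIR10 genome, and further scaling between libraries is not stated. Fragment counts could not be recovered from the low FPKM values, whose steps are blurred, so no counting interval is given. Of 25199 loci deposited, 25135 matched the RefSeq TAIR10.1 gene table, from which names and coordinates were taken. A value was blank for 1 locus in bes1-D replicate 1, and 327 loci had no value above 0.

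The R package limma 3.58.1 (R 4.3.3, trend and robust options) was used on log2(FPKM + 1), as group means of all 9 libraries with 6 residual degrees of freedom. The contrasts bes1-D minus En2 and bes1-D minus RAV1 over-expression were two-sided, with Benjamini-Hochberg adjustment over 19740 loci and calls at an adjusted p under 0.05. SD is over 3 libraries, and SE is of the log2 change. The fit was tested on simulated data. Tables and figures used Python 3.11.15 with pandas 2.3.3, numpy 2.4.6 and matplotlib 3.10.9.

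The 46 lists (622 genes, 617 in the table, 556 tested), the comparison and the naming rule were set with earlier results of these data known. Named were BES1, RAV1 and their families, all called members of a list with 5 or fewer and otherwise the 5 with the smallest p, and the 15 largest rises and falls among called loci with non-overlapping groups and a higher mean of at least 5 FPKM. Loci listed at 0 in 1 group and at 5 FPKM or more throughout the other were also named, and uncalled members of the brassinosteroid lists where needed. The values of 1 gene that the rule names are not reported here. Alternatives were a fit of 6 libraries, a pseudocount of 0.1, no filter or 5 FPKM, trimmed-mean scaling, quantile normalization, no trend or robust option, a replicate block, a 2-fold threshold, and leaving out each library.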

Additional observations from a re-analysis of the deposited data

How the results depend on the processing

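Fold changes on the log2(FPKM + 1) scale, an unknown depth and 3 libraries per group limit the precision, and a locus at 0 has no counting limit here. The 1572 calls became 294 (88 higher, 206 lower) when a change of at least 2-fold was also required. Lower calls dropped to 756 under trimmed-mean scaling, where higher calls numbered 593. Leaving out 1 library gave 616 to 1507 calls, 160 to 321 higher and 456 to 1205 lower, and the 110 called list members became 63 to 93. The cause was not tested. Of the list members 45 passed with the 2-fold requirement. BES1 and RAV1 stayed uncalled under every alternative run, with log2 changes of 0.37 to 0.59 and -0.96 to -0.56. The 124 other named genes included family members without a call, such as BZR1. Of the 124, 6 to 14 lost their calls under another pseudocount, no filter, other scaling, no trend and robust options or the fit of 6 libraries. The 110 that passed the 5 FPKM filter kept their status, called or not called. Without 1 library 23 to 39 lost their calls, not counting those that then fell below the filter and were not tested. No called gene that was still tested took the opposite sign.

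The replicate block gave 360 higher and 927 lower calls (1287 in all) and lost 10 of the named calls, while BEH1 was called lower (log2 change -0.50, adjusted p = 0.0351). Deviations of same-numbered wild-type and bes1-D libraries correlated at 0.15, -0.03 and 0.09, and those of differently numbered ones at -0.16 to 0.07. The highest values were of same-numbered pairs, but not every library correlated best with its own number. The labels give only the number, and whether same-numbered libraries share a batch was not tested.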

Other observations

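Loci annotated as pseudogenes were a class among the calls that was chosen after the values were seen. Of 182 tested pseudogenes 21 rose and none fell in bes1-D, where 2.19% of all loci rose and 5.77% fell. Of these 182, 150 passed the filter without the bes1-D libraries, and 4 of those rose, so most of the 21 could be tested only because they were high in bes1-D. With no filter on low values, 47 of 1334 pseudogenes (3.52%) were called higher and none lower, beside 369 higher (1.48%) and 998 lower (4.01%) of 24872 loci. Besides AT2G12040 and AT1G36400, the adjacent loci AT1G49080 and AT1G49090 stood at 0 to 0.31 FPKM in wild type and 1.95 to 6.30 in bes1-D. The most abundant pseudogenes that rose in bes1-D were AT4G04293, at 71.2, 68.96 and 86.4 FPKM in wild type and 148, 133 and 259 in bes1-D, and AT1G79245, at 92.8, 85.2 and 97.1 FPKM against 138, 173 and 130. Pseudogenes can share reads with related copies, and this was not tested.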
